A study of Homo sapiens with 6 samples.

Results

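The genes described here were close to silent in control Raji cells and were read in every library once the transcription factor IRF4 was raised. They are the 46 genes, of 23459 in the table, whose counts summed to at most 6 over the 3 control libraries and were at least 8 in each of the 3 IRF4-overexpressing libraries. The rule names 6 further genes to leave out, and 5 of these would have met it. Of the 46, 42 code for proteins, 2 are transcribed pseudogenes and 2 are long non-coding RNAs.

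Raji is an established human cell line from a Burkitt's lymphoma, a tumour of germinal centre B cells. Per the labels' protocols, control cells carried a lentivirus with the empty vector and IRF4-overexpressing cells a lentivirus with human IRF4 cDNA. Both groups were infected for 5 days and then selected for 7 days with puromycin at 3 µg/ml, and each group has 3 libraries. The table heads the control columns WT, and they were matched to the control samples by name and number. That these are the empty-vector cells rests on the labels. RNA was sequenced as stranded poly(A) libraries, with 27681979 to 46210702 counts per library. The labels do not say whether the 3 libraries of a group were separate infections, so the spread between them may be technical.

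IRF4 belongs to the interferon regulatory factors, which recognise GAAA repeats. In B cells it is known to bind such repeats alone when abundant, and composite sites together with ETS or AP-1 partners when scarce. Germinal centre B cells keep IRF4 low, and plasma cells keep it high. A gene without reads in a B cell line is often a gene of another tissue, or one that waits for a stimulus such as interferon.

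IRF4 (Entrez gene 3662) checks the labels: it had 41, 37 and 50 control counts against 5162, 4462 and 6054 with IRF4 raised. Counts of a gene follow the order of replicates 1, 2 and 3, controls first. The table does not separate reads of the introduced cDNA from those of the endogenous gene. The B cell identity of both groups was visible in CD79A, a signalling chain of the B cell receptor, at 6104 to 8359 control and 5475 to 6997 IRF4-overexpressing counts. EPCAM of epithelium, COL1A2 of fibroblasts, CDH5 of endothelium, ALB of liver and HBB of red cells had 0 counts in all 6 libraries. CD3D, of T cells, had 0 counts in 5 libraries and 2 in the other. Other markers of these and further cell types had reads, in part more with IRF4 raised. COL1A1 of fibroblasts had 19, 30 and 31 counts against 129, 44 and 81, and PECAM1 of endothelium 8, 8 and 12 against 26, 14 and 18. DDX4 of germ cells had 0 control counts against 5, 3 and 4, and MYH7 of heart 0 against 3, 1 and 2, while KRT8 of epithelium had 1, 3 and 8 against 2, 2 and 2. After centring each group on its mean, an axis among the libraries held 74.3% of the variance within groups. On it, control replicate 1 lay with IRF4-overexpressing replicates 2 and 3, apart from the other three libraries.

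Among the 46 genes were antiviral and chemokine genes beside many genes of tissues far from B cells. By textbook roles, 3 belong to antiviral defence, 4 are chemokines, cytokines or their receptors, and 6 are other immune regulators. Cell adhesion, junctions and matrix account for 9, channels, transport and metabolism for 5, and the germline for 3. A loosely drawn class named for the neuronal and sensory cytoskeleton holds 4. A further 8 act in signalling, sorting or glycosylation or have no role given here, and 4 are pseudogenes or non-coding RNAs. By the tissue each is best known from, 6 were assigned to lymphoid and myeloid cells, 3 to interferon-treated cells, 4 to liver, 3 to sensory organs, 3 to the nervous system and 3 to testis. Heart, epithelium and connective tissue had 2 each, erythroid cells and venules 1, and 17 were not assigned. These assignments were made after the members were known.

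The promoters of 33 of the 46 genes were found in the RefSeq table (GRCh38.p14), each as 250 bases before to 50 bases after the start. On either strand, 3 of them (9.09%) held the core of the interferon-stimulated response element, GAAA, any 2 bases and GAAA again, the paired repeat that interferon regulatory factors bind. The exact 95% interval of that share is 1.92% to 24.3%, and the share is 3.13% of all 16497 promoters of genes in the table. It is 3.25% of the 6340 promoters of genes as silent in control that did not meet the rule. Because they hold it, these 3 promoters follow up to the base before the start, 5′ to 3′ on the strand of the gene. Capitals mark a match that lies wholly before the start.
IFITM1 (chr11:313790-314039, plus strand): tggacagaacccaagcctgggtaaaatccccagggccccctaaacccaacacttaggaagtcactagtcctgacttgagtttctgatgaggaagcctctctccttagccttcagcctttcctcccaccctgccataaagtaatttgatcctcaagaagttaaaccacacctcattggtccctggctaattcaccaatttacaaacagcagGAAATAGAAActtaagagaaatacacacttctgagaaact
TRIM5 (chr11:5685075-5685324, minus strand): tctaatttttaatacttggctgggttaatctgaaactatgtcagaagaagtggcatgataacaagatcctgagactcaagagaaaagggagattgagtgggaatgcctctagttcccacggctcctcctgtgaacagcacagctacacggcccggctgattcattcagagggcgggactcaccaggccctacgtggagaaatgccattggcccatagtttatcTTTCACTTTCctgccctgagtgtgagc
LINC00882 (chr3:107240639-107240888, minus strand): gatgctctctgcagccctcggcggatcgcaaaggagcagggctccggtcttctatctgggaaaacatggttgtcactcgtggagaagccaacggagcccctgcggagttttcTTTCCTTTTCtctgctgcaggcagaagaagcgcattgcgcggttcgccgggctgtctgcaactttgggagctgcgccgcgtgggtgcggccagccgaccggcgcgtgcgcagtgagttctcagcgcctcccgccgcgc

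The IFITM1 match begins 40 bases before the start, and a further match in that promoter begins 6 bases before the start and runs across it. Those of TRIM5 and LINC00882 begin 27 and 138 bases before the start and lie on the opposite strand. A match describes letters, not binding. Most of the 33 promoters had no such letters, and the upstream sequences of PCDH15 and CCL3 are shown as examples of a sensory gene and a chemokine gene without them. The capitals in CCL3 mark TATAAA, the TATA box, which begins 29 bases before its start.
PCDH15 (chr10:54801232-54801481, minus strand): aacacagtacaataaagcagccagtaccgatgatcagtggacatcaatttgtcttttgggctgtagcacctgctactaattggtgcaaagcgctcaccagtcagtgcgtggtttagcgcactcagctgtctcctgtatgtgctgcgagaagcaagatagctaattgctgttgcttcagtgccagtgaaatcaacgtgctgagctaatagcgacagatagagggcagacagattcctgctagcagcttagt
CCL3 (chr17:36090144-36090393, minus strand): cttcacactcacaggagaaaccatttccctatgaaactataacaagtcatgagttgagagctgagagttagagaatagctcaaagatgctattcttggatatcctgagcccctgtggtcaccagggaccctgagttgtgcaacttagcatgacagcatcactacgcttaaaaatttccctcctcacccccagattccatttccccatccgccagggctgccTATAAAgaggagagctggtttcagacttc

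Other motifs were searched on both strands of the same windows. The composite of an ETS and an IRF site, GGAA, any 2 bases and GAAA, was in 0 of the 33 promoters and in 2.63% of all. Of the composites of an IRF and an AP-1 site, GAAA joined directly to TGANTCA was in 0 and in 0.0970% of all, and TTTC, any 4 bases and TGANTCA was in 0 and in 0.0546% of all. TTCNNNGAA, the site of STAT factors, was in 4 (12.1%, against 7.04% of all and 8.28% of the control-silent genes outside the rule), those of IFITM1, PIEZO2, CRB1 and ST6GALNAC3. Within the 250 bases before the start it was in 2 (6.06%, against 6.12% of all), those of IFITM1 and ST6GALNAC3. TGANTCA, the AP-1 site, was in 3 (9.09%, against 6.01% and 8.38% in the same order), those of TRIM5, SERPINB2 and ANKRD22. GGG, any 2 bases and TTTCC, an NF-kB site, was in 2 (6.06%, against 1.98% and 1.70%), those of ITIH1 and XXYLT1-AS2. ATGCAAAT, the octamer bound by POU2F1 and POU2F2, was in 1, that of ALDH1A1 (3.03%, against 1.63% and 1.77%). TATAAA was in 3 (9.09%, against 9.53% and 15.3%), those of CCL3, CD200 and SERPINB2. In IFITM1 the STAT match begins 12 bases before the start and shares bases with the second response element.

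The promoters ranged from very CpG-rich to nearly CpG-free. The 33 had a median of 13 CpG pairs per 300 bases, between the 9 of control-silent genes outside the rule and the 22 of all promoters. SPAG6 had 47, HOMER1 41 and PGCKA1 39, while SERPINB2, MYO3B and C4BPB had 1 each and IFITM1 and CCL3 had 3. Median gene width was 3619 bases for the 46 genes and 2120 bases for the control-silent genes outside the rule.

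Control counts of the 46 genes ran from 0 to 5 in single libraries, and these values, with the IRF4-overexpressing minimum, chose the genes. The folds and levels below therefore describe them and carry no test. A level is given as CPM, the usual depth-scaled read count, with library sizes adjusted by the TMM method. A fold is the ratio of summed counts per summed library size, with an exact 95% interval that covers counting error only. Where all 3 control libraries had 0 counts, as for 7 genes, the fold is a lower bound that sets the summed control count at 3, or 0.0290 CPM. Over the other 39 genes the folds ran from 4.33 to 157, with a median of 11.7, or 12.4 with the 7 genes at their bounds.

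Among antiviral genes, IFITM1 was read the most. Its product blocks the entry of enveloped viruses at the membrane, and it had 2, 1 and 0 control counts against 63, 78 and 112 with IRF4 raised. Its IRF4-overexpressing level of 2.91 ± 0.342 CPM per kilobase (SD, n = 3) was the highest of the 46 genes on that scale, and its fold was 73.0 (interval 24.7 to 356.3). That the counts of all 3 IRF4-overexpressing libraries lay above the control ones is required of every member by the rule. TRIM5, which attacks the capsids of retroviruses, had 2, 1 and 1 control counts against 9, 11 and 10. ZBP1, a sensor of Z-form nucleic acids that can start necroptosis, had 2, 1 and 1 control counts against 9, 11 and 9. Both stand close to the minimum of the rule, at 0.255 ± 0.0453 and 0.248 ± 0.0565 CPM (SD, n = 3). TRIM5 overlaps TRIM34, which was at 9.65 ± 0.436 CPM in control and 12.1 ± 1.79 CPM with IRF4 raised (SD, n = 3 per group) and was not called, and how reads of overlapping genes were counted is not given in the sources used here.

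Interferon-stimulated genes that already had reads in control were largely higher as well. Outside the 46 genes, 42 of 53 tested interferon-stimulated genes were higher and 0 lower by edgeR's quasi-likelihood test at a Benjamini-Hochberg adjusted p under 0.05, with a median log2 fold change of 1.64. Over all 12079 genes tested, 2.98% were higher and 0.182% lower, and the median log2 fold change was 0.01. IFI44L, induced by type I interferon, was at 2.21 ± 0.330 CPM in control and 147 ± 21.7 CPM with IRF4 raised (SD, n = 3 per group), a log2 fold change of 6.05 ± 0.19 (SE; adjusted p = 5.23e-05, edgeR). SAMD9L and IFI27 had log2 fold changes of 3.18 and 6.73 (edgeR adjusted p = 2.27e-04 and 5.38e-04). Of the 14 genes on the list of interferon-stimulated genes that were near silent in control, 3 are among the 46. The other members, CCL5 among them, are not on that list, which need not be complete. A list of 21 type I, II and III interferon genes had all 21 near silent in control, and 0 of them are among the 46. All lists are counted without the 6 genes that the rule leaves out, some of which belong on them.

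The chemokine genes CCL5 and CCL3 encode secreted proteins that draw T cells and myeloid cells. CCL5 had 5, 1 and 0 control counts against 28, 34 and 55, a fold of 16.9 (interval 7.52 to 46.9). CCL3, also on chromosome 17, had 5, 1 and 0 against 10, 12 and 22, a fold of 6.35 (interval 2.70 to 18.2). For both genes the control counts sat mainly in replicate 1, whose 5 counts are the highest any of the 46 genes reached in a control library. CCL3 has near-identical copies, so its single value is uncertain.

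ACKR1, the atypical receptor that binds chemokines on venules and red cells without signalling, had 3, 2 and 1 control counts against 24, 17 and 25. IL27, the subunit that pairs with EBI3 to form interleukin-27, had 1, 0 and 1 against 8, 11 and 9. EBI3 itself was well read in control, at 9.65 ± 1.28 CPM, and was at 28.0 ± 1.03 CPM with IRF4 raised (SD, n = 3 per group), a log2 fold change of 1.54 (adjusted p = 0.00198, edgeR). Of the 8 chemokine genes tested outside the 46, 3 were higher and 0 lower, the CXCR3 ligand genes CXCL9, CXCL10 and CXCL11, with log2 fold changes of 3.32, 3.15 and 2.93 (edgeR adjusted p = 8.94e-04, 8.94e-04 and 0.00794). CXCL11 lost its call without control replicate 1 or 2 (edgeR adjusted p = 0.0613 and 0.0502). CCL17, with a log2 fold change of 2.60, did not pass (edgeR adjusted p = 0.0830) but passed with DESeq2 and without IRF4-overexpressing replicate 1. Cytokine genes outside the 46 had 2 of 11 tested higher, EBI3 and IL10, and 0 lower. IL10, at 2.46 ± 0.423 and 5.65 ± 0.0880 CPM (SD, n = 3 per group; edgeR adjusted p = 0.00953), lost its call without control replicate 1 or 3 (edgeR adjusted p = 0.0619 and 0.0693). LTB and IL7, next by p, did not pass (edgeR adjusted p = 0.0708 and 0.100), though both passed without IRF4-overexpressing replicate 1. LTB also passed with DESeq2 (DESeq2 adjusted p = 0.00765) and with scaling by library sizes alone (edgeR adjusted p = 0.0337), and IL7 did not.

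Of the other immune regulators, CD200 and BCL2L14 had no control read at all. CD200, a membrane ligand that restrains myeloid cells, had 19, 27 and 28 counts with IRF4 raised, at least 21.4-fold higher. BCL2L14, of the BCL2 family, had 12, 34 and 36, at least 23.7-fold higher, and its count in replicate 1 was well under the other two. ZC3H12C, of the Regnase family that cuts inflammatory mRNAs, had 2, 3 and 0 control counts against 14, 23 and 21. MAL, a raft protein of T cells and epithelia, had 2, 0 and 1 against 12, 17 and 15. C4BPB, a chain of the complement inhibitor C4b-binding protein made in liver, had 2, 1 and 0 against 11, 9 and 16. SERPINB2, an inhibitor of the protease urokinase, had 1, 0 and 0 against 15, 8 and 10.

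Adhesion, junction and matrix genes were the largest class with a known role. PCDH15, the cadherin of the tip links of inner ear hair cells, had 1, 0 and 0 control counts against 30, 68 and 53. Its IRF4-overexpressing level was 1.27 ± 0.504 CPM (SD, n = 3), with a fold of 131 (interval 23.1 to 5195). It spreads over a width of 13865 bases, so per kilobase it was at 0.0915 ± 0.0364 CPM (SD, n = 3). PKP2, a desmosome plaque protein of the heart, had 0 control counts and 21, 14 and 28 with IRF4 raised, at least 18.2-fold higher.

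CDH1, the E-cadherin that joins epithelial cells, had 3, 0 and 2 control counts against 9, 29 and 16. Its highest IRF4-overexpressing CPM was 2.99 times its lowest, the widest spread of the 46 genes. ITIH1, a liver-made protein that binds hyaluronan, had 2, 1 and 2 against 9, 25 and 21. LUM, the matrix proteoglycan lumican, had 3, 0 and 0 against 13, 14 and 9. CRB1, a polarity protein of photoreceptors, had 0, 0 and 1 against 8, 14 and 13. LTBP2, a microfibril protein, and IGSF3, an immunoglobulin-domain membrane protein, were between 8 and 13 counts in each IRF4-overexpressing library. LTBP2 had the lowest fold of the 46, 4.33 (interval 1.77 to 12.7).

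Among channels, transporters and enzymes, KCNQ1, the potassium channel that ends the cardiac action potential, had 1, 2 and 0 control counts against 20, 27 and 26. It overlaps KCNQ1OT1, a gene of 39.8 ± 8.00 and 31.8 ± 9.40 CPM in control and IRF4-overexpressing libraries (SD, n = 3 per group), which was not called. PIEZO2, the channel that opens when membranes are stretched in touch neurons, had 3, 0 and 0 against 15, 12 and 21. ABCB4, which exports phospholipid into bile, had 3, 2 and 1 against 10, 21 and 19. It overlaps CROT, at 18.73 ± 2.175 and 16.06 ± 1.683 CPM (SD, n = 3 per group) and not called. ALDH1A1, an enzyme that makes retinoic acid, had 1, 0 and 1 against 10, 19 and 18. THRSP, a lipogenic protein of liver and fat, had 4, 0 and 1 against 9, 13 and 14, and overlaps NDUFC2, at 58.7 ± 3.96 and 68.2 ± 10.04 CPM (SD, n = 3 per group) and not called.

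The class named for the neuronal and sensory cytoskeleton loosely grouped 4 genes, and PDZRN3 among them was not assigned to a tissue. PDZRN3, a ubiquitin ligase of the neuromuscular junction, had 0 control counts and 31, 28 and 31 with IRF4 raised, at least 26.0-fold higher, the largest bound among the 7 genes unread in control. SNCG, which encodes gamma-synuclein, had 2, 1 and 2 control counts against 19, 21 and 20, the fourth highest level per length, at 0.619 ± 0.102 CPM per kilobase (SD, n = 3). It overlaps MMRN2, which had 8, 4 and 1 control counts against 24, 16 and 29 and was not called (edgeR adjusted p = 0.0828). MYO3B, a myosin of hair cell stereocilia, had 0 control counts against 9, 23 and 25. HOMER1, a scaffold behind glutamate receptors, had 0, 0 and 1 against 8, 8 and 13. In SNCG and PDZRN3 the IRF4-overexpressing libraries were close to each other, while MYO3B was low in replicate 1.

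Germline genes numbered 3. PRAME, an antigen of testis and many tumours, had 2, 1 and 1 control counts against 18, 38 and 37, a fold of 20.1 (interval 7.60 to 75.4). SPAG6, part of the sperm tail axoneme, had 5, 1 and 0 against 21, 23 and 36. POTEH, with 0, 1 and 1 against 9, 8 and 10, has near-identical family copies, so its reads are uncertain.

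The highest count of all belonged to a pseudogene. ZNF204P, a zinc finger pseudogene, had 1, 0 and 3 control counts and 148, 232 and 345 with IRF4 raised, a fold of 157 (interval 61.0 to 577) and a level of 5.90 ± 1.46 CPM (SD, n = 3). It held 21.2% of all IRF4-overexpressing counts of the 46 genes. ZNF391, which overlaps it in the annotation, was at 1.16 ± 0.360 CPM in control and 0.667 ± 0.139 CPM with IRF4 raised (SD, n = 3 per group), and was not called. FRG2EP, a pseudogene with many copies, had 3, 3 and 0 control counts against 32, 42 and 52. LINC00882 had 3, 0 and 0 against 24, 30 and 45. XXYLT1-AS2, with 2, 1 and 0 against 12, 12 and 10, lies antisense to XXYLT1, which was at 34.0 ± 2.55 and 33.1 ± 1.68 CPM (SD, n = 3 per group). The strand setting of the counting is not given, so reads of such a pair cannot be told apart.

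The last class joined genes of mixed function. PGCKA1 and ANKRD22 had 0 control counts, against 18, 15 and 16 and against 9, 11 and 15 with IRF4 raised. CCDC149 had 0, 2 and 0 against 14, 28 and 38. ARHGAP31, which switches off the small GTPases CDC42 and RAC1, had 0, 0 and 2 against 20, 14 and 18. TVP23A, a protein of Golgi vesicles, had 3, 2 and 1 against 17, 16 and 18. It overlaps NUBP1, at 36.72 ± 1.486 and 40.05 ± 3.956 CPM (SD, n = 3 per group) and not called. The kinase gene HUNK, the sialyltransferase gene ST6GALNAC3 and SPATS2L were at 9 to 21 counts in each IRF4-overexpressing library.

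**Figure D1:**
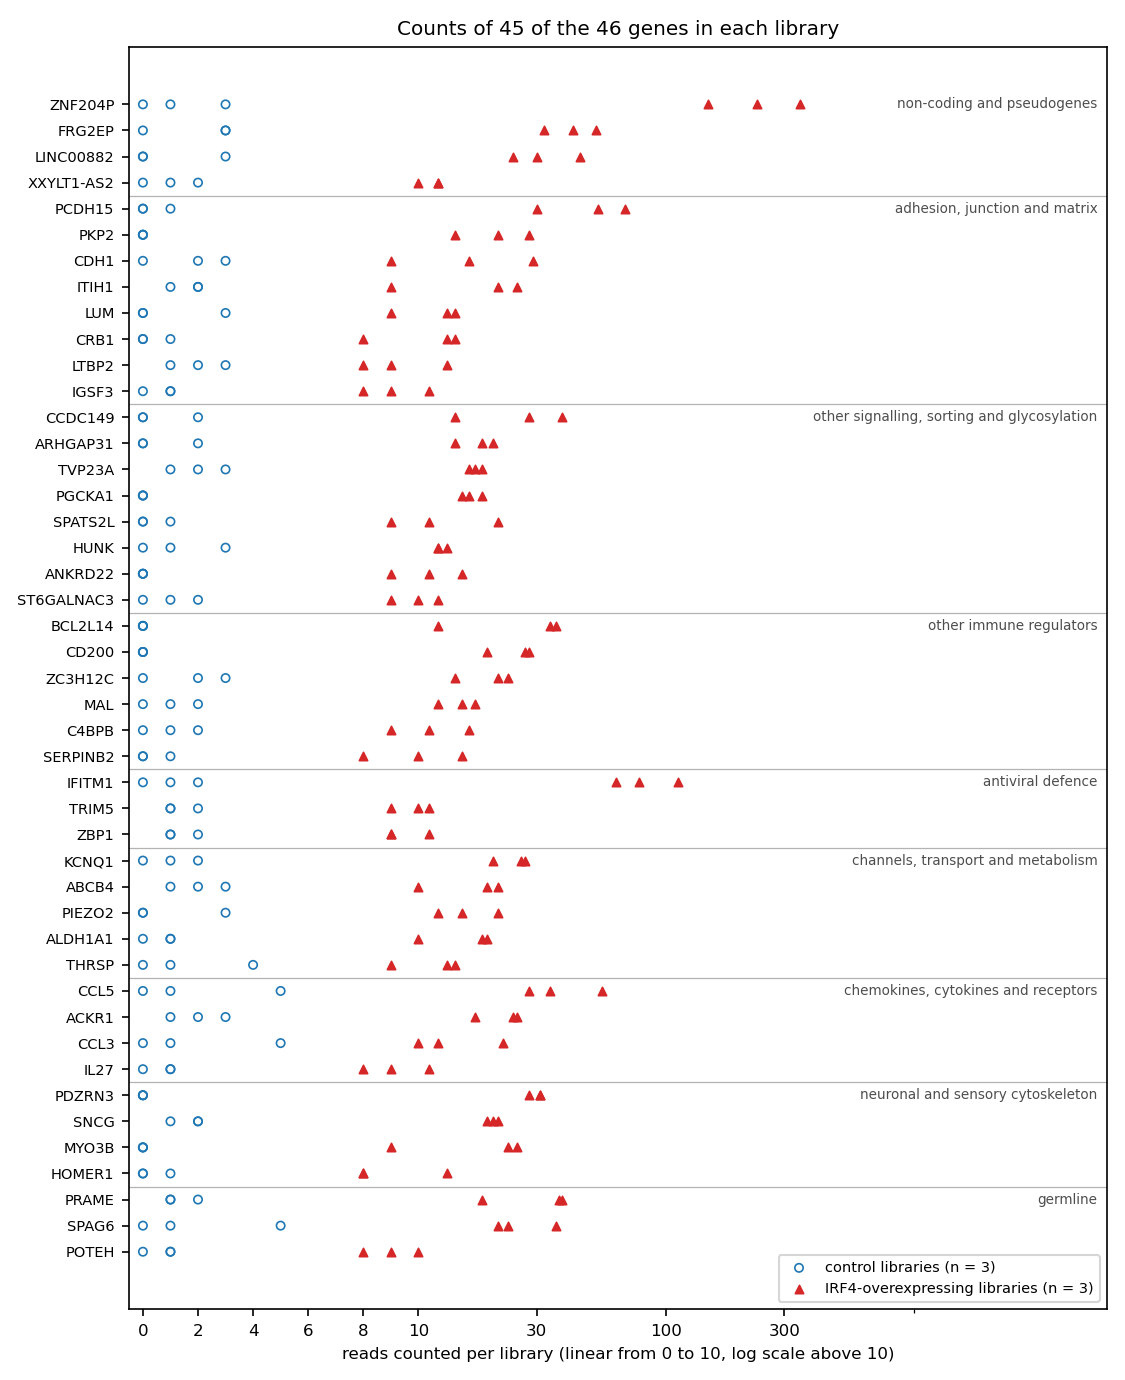
Reads counted for 45 of the 46 genes (rows, grouped by role) in 3 control libraries (open circles) and 3 IRF4-overexpressing libraries (triangles), on an axis that is linear from 0 to 10 and logarithmic above 10. Control counts lie between 0 and 5, and ZNF204P and IFITM1 reach the highest IRF4-overexpressing counts, up to 345 and 112.

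Summed over the 46 genes, the level was 1.84, 1.34 and 0.848 CPM in the control libraries against 24.8, 31.2 and 29.3 CPM with IRF4 raised. Without ZNF204P the IRF4-overexpressing sum was 22.6 ± 2.24 CPM (SD, n = 3). The genes were read weakly even with IRF4 raised: mean CPM, not corrected for length, ran from 0.228 to 5.90 with a median of 0.418, and 30 genes were under 0.5 CPM. ZNF204P, IFITM1, PCDH15 and FRG2EP were over 1 CPM.

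**Figure D2:**
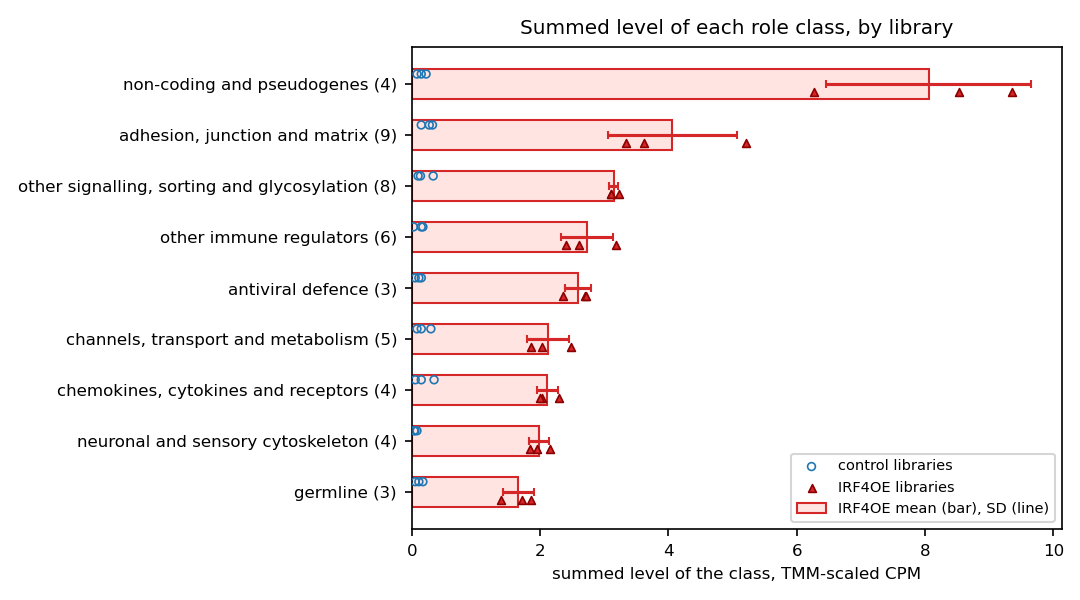
Summed TMM-scaled CPM (x axis) of each role class, with the number of genes in brackets, for control libraries (circles) and IRF4-overexpressing libraries (triangles). Bars and lines give the IRF4-overexpressing mean and SD (n = 3), from 8.06 ± 1.60 CPM for pseudogenes and non-coding RNAs down to 1.66 ± 0.240 CPM for germline genes.

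Within the IRF4-overexpressing group the 46 genes did not share a single order. By CPM, 22 were lowest in replicate 1, 6 in replicate 2 and 18 in replicate 3, and 23 were highest in replicate 2. The highest library was at most 2.99 times the lowest, with a median of 1.52 times, and in 7 genes it was at least 2 times. These were CDH1, BCL2L14, ITIH1, MYO3B, PCDH15, SERPINB2 and LUM, all lowest in replicate 1 except SERPINB2 and LUM, which were lowest in replicate 3. Replicate 1 is the library that lies apart from the other two of its group on the axis, and its part in these differences was not tested.

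The filter on low counts in the fit over all genes passed 25 of the 46, and 24 of these were called higher, against 2.98% of the genes tested. CCL3 was tested and did not pass (edgeR adjusted p = 0.117). The rule and this fit use the same contrast, so nothing is read from that count.

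Few control-silent genes met the rule, and fewer met its mirror image. Of 10345 genes at or under 6 control counts in all, 51 (0.493%) had at least 8 counts in each IRF4-overexpressing library, the 5 genes left out included. The mirrored rule, at most 6 counts over the IRF4-overexpressing libraries and at least 8 in each control library, found 0 of 9588 genes (0.0%). At a minimum of 5 counts the numbers were 125 and 2. Both rules use raw counts. The shallowest control library had 27681979 counts and the shallowest IRF4-overexpressing library 33588248, so the mirrored rule asks for a higher level. Sums over the remaining silent genes were also larger with IRF4 raised. The genes near silent in control that did not meet the rule summed to 59.3 ± 3.63 CPM in control and 143 ± 3.22 CPM with IRF4 raised (SD, n = 3 per group). That sum is low in control by choice. The 9588 genes chosen for silence in the IRF4-overexpressing libraries summed to 45.3 ± 1.86 CPM in control and 61.4 ± 1.14 CPM with IRF4 raised (SD, n = 3 per group).

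**Figure D3:**
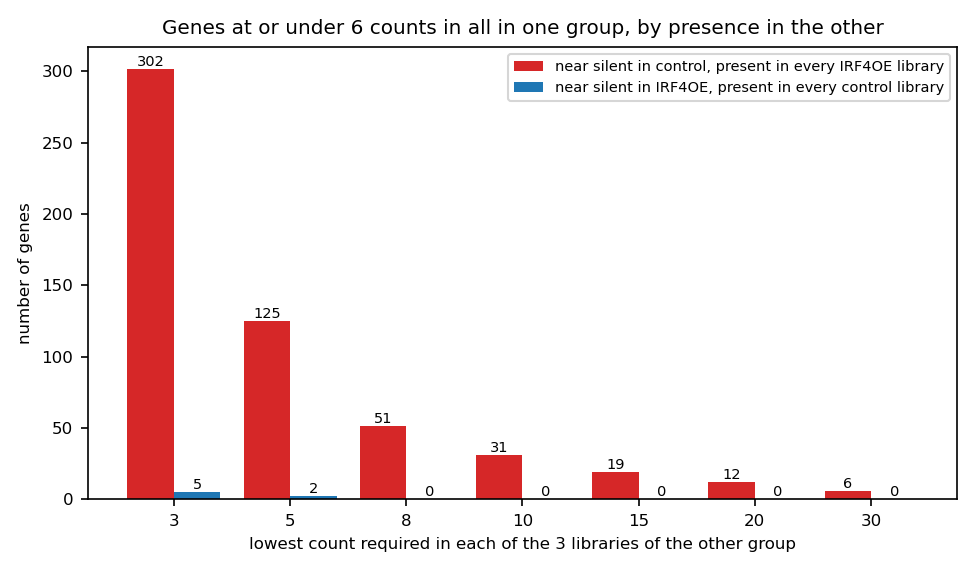
Number of genes (y axis) with at most 6 counts in all over one group and at least the given count in each library of the other (x axis), for genes silent in control (red) and genes silent with IRF4 raised (blue). At a minimum of 8 counts the numbers are 51 and 0, and at 3 counts they are 302 and 5. Counts are raw and not scaled for depth.

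The limits of the rule fall in a region with many genes. Just inside, IL27, POTEH, HOMER1, CRB1, IGSF3, SERPINB2 and LTBP2 had a lowest IRF4-overexpressing count of 8. Just outside, 25 genes met the control limit with a lowest count of 7, among them NLRP3, an inflammasome sensor (0, 1 and 0 against 7, 14 and 9), and PDCD1LG2, a ligand of the receptor PD-1 (2, 0 and 1 against 8, 7 and 9). At the control limit, 8 of the 46 genes had 6 control counts, and 5 genes outside had 7, among them TFPI, an inhibitor of blood clotting (1, 2 and 4 against 27, 43 and 36).

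Genes of other tissues on the lists were set against the rule as well. Of the 55 neuronal and synaptic genes on a list that were near silent in control, 0 are among the 46, and the same holds for 54 developmental transcription factors, 44 myeloid, 36 T and NK cell, 31 liver and kidney, 29 muscle, 26 endothelial and platelet, 18 erythroid and 11 glial genes. CDH1 was the 1 of 40 epithelial genes (2.50%), LUM the 1 of 30 mesenchymal and matrix genes (3.33%) and PRAME the 1 of 38 germline genes (2.63%). Chemokines had 2 of 39 and cytokines 1 of 36, beside the 3 of 14 interferon-stimulated genes. The share of all near-silent genes that met the rule was 0.493%, or 0.445% without the left-out genes, which is the basis of the list counts. At that share, lists of these sizes would hold few or no members, so nothing is read from a count of 0 or 1. In summed level, outside the 46 genes, epithelial genes were at 57.9 to 72.8 CPM in control and 69.5 to 114 CPM with IRF4 raised, and mesenchymal and matrix genes at 76.8 to 101 and 77.8 to 109 CPM. Myeloid genes were at 19.6 to 22.9 and 23.4 to 26.3 CPM, and T and NK cell genes at 42.1 to 48.1 and 51.8 to 71.4 CPM. Muscle genes were at 20.9 to 29.3 and 39.1 to 56.9 CPM, and endothelial and platelet genes at 34.3 to 38.2 and 43.1 to 57.1 CPM. Liver and kidney genes were at 7.32 to 7.93 and 10.1 to 11.9 CPM, and erythroid genes at 2.34 to 2.76 and 4.72 to 5.29 CPM. The groups overlapped for epithelial, mesenchymal, neuronal, glial, germline and developmental genes and did not for the others named. The share of all genes whose groups do not overlap is not given here, so nothing is read from that separation. Single genes held much of several of these sums, so the sums do not show a rise of whole lists. In group means, control first, TTN held 12.5 of 25.8 and 29.3 of 46.5 CPM of the muscle sum. ANK1 held 2.34 of 2.51 and 4.81 of 5.06 CPM of the erythroid sum. LCK held 38.2 of 45.9 and 52.4 of 63.5 CPM of the T and NK cell sum. ICAM2 held 29.8 of 36.2 and 37.2 of 51.3 CPM of the endothelial and platelet sum. All 6 libraries had 0 counts for 25 of 46 epithelial, 19 of 42 mesenchymal, 22 of 60 myeloid and 15 of 47 T and NK cell genes. The part of other cells in the values of the 46 genes was not tested.

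**Figure D4:**
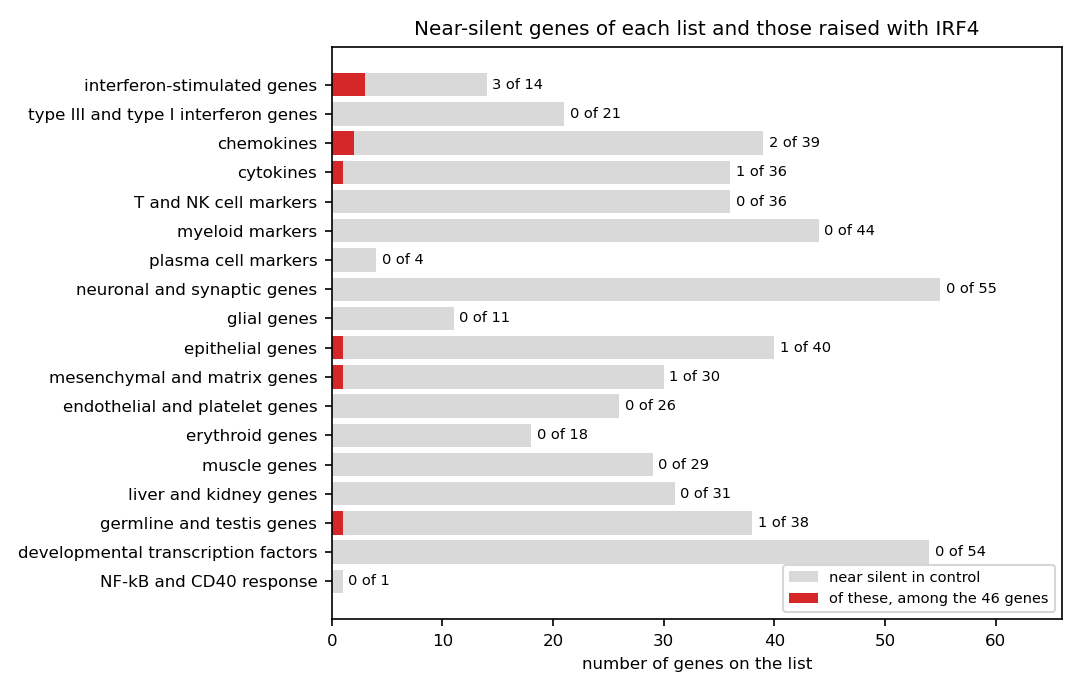
For each list, the number of genes near silent in control (grey, x axis) and the number of these among the 46 genes (red), written beside each bar. Interferon-stimulated genes have 3 of 14, chemokines 2 of 39 and neuronal and synaptic genes 0 of 55, beside 0.445% of all near-silent genes.

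The 46 genes lie on 18 chromosomes, with 6 each on chromosomes 1 and 3 and 5 on chromosome 11, and none was the nearest annotated neighbour of another. Of the 46, 12 overlap another gene of the table, so their reads may be shared with it. Genes next to or overlapping them in the RefSeq order (GRCh38.p14) numbered 108, of which 54 were tested, 4 were called higher (7.41%, against 2.98% of all genes) and 0 lower. TRIM22, an antiviral relative beside TRIM5, was at 11.5 ± 1.05 and 52.1 ± 7.91 CPM (SD, n = 3 per group), a log2 fold change of 2.18 (adjusted p = 9.40e-04, edgeR). SERPINB10, beside SERPINB2, was at 0.212 ± 0.0968 and 1.88 ± 0.416 CPM (SD, n = 3 per group), a log2 fold change of 3.08 (adjusted p = 0.00537, edgeR). RELL1, which overlaps PGCKA1, was at 0.428 ± 0.129 and 3.59 ± 0.746 CPM (SD, n = 3 per group), a log2 fold change of 3.05 (adjusted p = 0.00258, edgeR). DUBR, a non-coding gene 54 bases from LINC00882, was at 7.06 ± 0.650 and 12.6 ± 0.983 CPM (SD, n = 3 per group), a log2 fold change of 0.84 (adjusted p = 0.0165, edgeR), and lost its call without any single library other than IRF4-overexpressing replicate 1.

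Close relatives beside a member often had few or no reads in any library. IFITM3, on one side of IFITM1, had 0 counts in all 6 libraries. IFITM2, on the other side, had 5, 2 and 7 control counts against 10, 5 and 2. How reads shared by similar genes were counted is not given, so 0 counts need not mean no expression. ITIH3 beside ITIH1 had 0 counts in 5 libraries and 2 in IRF4-overexpressing replicate 3, and C4BPA beside C4BPB had 0 in all 6. CDH3 beside CDH1 had 0 control counts and 1 in each IRF4-overexpressing library. CCL4, beside CCL3, was at 0.133 ± 0.0192 and 0.345 ± 0.0562 CPM (SD, n = 3 per group; adjusted p = 0.0939, edgeR), which did not pass.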

How the data were processed

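Per the labels, poly(A) RNA of 3 control and 3 IRF4-overexpressing Raji libraries was sequenced. The authors deposited raw read counts per Entrez gene and 1 other value, a gene width in bases, per the file headers. Per the submitters' processing notes the builds were mm9 and hg19, and the aligner, counting tool, annotation and strand setting are not given in the sources used here. Symbols, neighbours and promoters came from RefSeq (GRCh38.p14), with 1 promoter per gene, and 23308 of 23459 rows matched a symbol.

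The quasi-likelihood test of edgeR 4.0.16 (R 4.3.3; two-sided) was run on the 12079 genes that passed filterByExpr, after TMM scaling and with group as the single term. Genes were called at a Benjamini-Hochberg adjusted p under 0.05. The code was tested on simulated data. Members, lists and motifs were chosen with earlier results of these data known. Named are the 15 members with the highest mean CPM, up to 4 per role class or list, members and genes at the limits of the rule, and up to 4 list genes of smallest p outside the members. The remaining members but 1 are also named, as are neighbours that were called or share a family, and these were picked after their values were seen. That member and some other genes are counted but not reported here by name. No replicate pair matched within sampling noise (chi-square per gene 6.48 to 185).

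The alternatives were other scalings, filters, DESeq2 1.42.0, limma-voom (limma 3.58.1), other limits of the rule, fits without each library in turn and a replicate block.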

Additional observations from a re-analysis of the deposited data

How the results depend on the processing

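The number of genes depends on the limits of the rule. It was 27 with at most 3 control counts, 87 with at most 10, 120 with at least 5 counts in each IRF4-overexpressing library and 15 with at least 15, against 46 as reported. Leaving out single control libraries, with at most 4 counts over the remaining pair, gave 45 to 62 genes. These held 38 to 46 of the reported 46. Leaving out an IRF4-overexpressing library only drops a condition of the rule, so all 46 stay by construction and the number cannot fall. It was 54 to 83 genes, the highest without IRF4-overexpressing replicate 1. Calls over all genes moved more: 577 higher and 175 lower with DESeq2, 13 lower with library sizes alone, and 120 to 2436 higher and 3 to 3071 lower without single libraries, against 360 and 22. Each of the other 5 libraries left out gave 120 to 156 higher, and the highest numbers came without IRF4-overexpressing replicate 1, when both libraries left in that group lie on the same side of the library axis; the cause was not tested. Members called higher numbered 2 with the filter of at least 1 CPM in 3 libraries, where 2 were tested, and 8 to 31 without single libraries, against 24.

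The labels state no pairing by replicate number, and same-numbered libraries had correlations of -0.649, -0.219 and -0.467 in their deviations. These values show no shared shift but cannot tell whether the samples were paired. With the replicate block, 3 genes were higher and 0 lower, and 1 interferon-stimulated gene outside the members was higher. Of the members, 0 were called, and all 25 tested were at an unadjusted p under 0.05. The rule uses the same contrast, so nothing is read from the 25. Of 21 called genes refitted singly, 19 lost their call with the replicate block, VCAM1 (edgeR adjusted p = 0.0796), TTN, ANK1 and ZP3 among them. Without single libraries, the interferon-stimulated genes outside the members that were called higher numbered 28 to 46, against 42. For the 25 genes outside the members refitted singly, direction reversed in 0 of 322 refits, and 39 refits lost and 6 gained a call. Most of these genes were picked for a call or a small p, and the refits share libraries. Nothing is therefore read from the lack of reversals.

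Depth limits the weakest members: the fold of LTBP2 has a counting interval of 1.77 to 12.7.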

Other observations

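Outside the 46 genes, a few genes of other tissues with reads in control were called higher with IRF4 raised. VCAM1, an adhesion ligand of activated endothelium, had a log2 fold change of 1.37 (edgeR adjusted p = 0.00472) and kept its call without any single library. TTN, the giant spring protein of muscle, was at 12.5 ± 1.71 and 29.3 ± 4.40 CPM (SD, n = 3 per group; edgeR adjusted p = 0.0103). ANK1, the red cell ankyrin, was at 2.34 ± 0.211 and 4.81 ± 0.306 CPM (SD, n = 3 per group; edgeR adjusted p = 0.0102). ZP3, a gene of the egg coat, was at 0.441 ± 0.153 and 1.43 ± 0.236 CPM (SD, n = 3 per group; edgeR adjusted p = 0.0248). TTN lost its call without any single control library or IRF4-overexpressing replicate 3 (edgeR adjusted p from 0.0538 to 0.0750). For ANK1 this held when control replicate 1, control replicate 2 or IRF4-overexpressing replicate 2 was left out (0.0565 to 0.0743), and for ZP3 also when IRF4-overexpressing replicate 3 was (0.0771 to 0.133). Each was the single called gene among those tested on its list, of 8 muscle, 1 erythroid, 5 endothelial and platelet and 6 germline genes, against 2.98% of all genes tested, and these genes were picked after their values were seen. Of the genes tested on other tissue lists, 0 of 6 neuronal, 0 of 3 epithelial, 0 of 8 mesenchymal and matrix, 0 of 3 liver and kidney and 0 of 6 developmental genes were called higher by edgeR, and 1 of 4 glial genes was. On the lists of other blood cells, 2 of 10 myeloid genes and 1 of 6 T and NK cell genes were called higher. Of the 26 genes on the lists without a call, 8 were higher at an unadjusted p under 0.05 by edgeR, and 3 were called higher by DESeq2 and 0 by limma-voom.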
